A study of Mus musculus with 24 samples.

Results

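The liver releases glucose between meals and stores it as glycogen after them, and insulin switches it from release to storage. Of 5 genes that stand at these steps, Igfbp1, Irs2, Ppp1r3c, Pck1 and G6pc, 4 had a row in the C57BL/6J table of transcripts that differed between diets and 3 had a row in the A/J table. Rows were found by gene symbol in the authors' deposited tables, which list 681 transcripts (455 named genes) for C57BL/6J and 699 transcripts (482 named genes) for A/J, and each member found had 1 transcript. The members were selected on having such a row, that is on the deposited adjusted p, with their fold changes and statistics known. Their values are therefore a description, and no test of them was made.

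RNA-seq was run on liver of the inbred mouse strains C57BL/6J and A/J in 6 groups of 2 libraries each, 12 in all. The Control groups of both strains spent 16 weeks on control diet and the HF groups 16 weeks on high fat diet. The Reversal groups spent 8 weeks on high fat diet followed by 8 on control diet, and the labels give no other treatment to any group. A diet tag of the Reversal libraries gives 16 weeks of control diet, and the treatment protocol, which gives 8, was followed. The study asked whether changes seen on high fat diet stay after a return to control diet. The labels do not say whether both libraries of a group are from different mice, so the deposited p-values reflect library-to-library spread that may be only technical. The sources used here give no sex, age, feeding state or hour of sampling.

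Insulin binds its receptor on the liver cell, and the receptor passes the signal on through the adaptor proteins IRS1 and IRS2 to the kinase AKT. AKT keeps the transcription factor FoxO1 out of the nucleus, and FoxO1 drives Igfbp1, Irs2, Pck1 and G6pc when insulin is low. Glucagon and glucocorticoids, the hormones of fasting, act on Pck1 and G6pc in the opposite direction to insulin. PCK1 makes phosphoenolpyruvate, an early and committed step of gluconeogenesis, and the catalytic subunit encoded by G6pc frees glucose from its phosphate in the last step. Ppp1r3c encodes a protein, also called PTG, that holds protein phosphatase 1 on glycogen and so favours glycogen synthesis. IGFBP1 is secreted by the liver and binds insulin-like growth factors in blood.

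The 250 bases before the start of Igfbp1, Pck1 and G6pc are printed because these promoters are textbook sites of control by insulin and by fasting hormones. The sequences are from RefSeq, in build GRCm38.p6, all 3 on the plus strand, at chr11:7197537-7197786 for Igfbp1, chr2:173152823-173153072 for Pck1 and chr11:101367466-101367715 for G6pc, and capitals mark matches to the motifs named in the next paragraph.
Igfbp1: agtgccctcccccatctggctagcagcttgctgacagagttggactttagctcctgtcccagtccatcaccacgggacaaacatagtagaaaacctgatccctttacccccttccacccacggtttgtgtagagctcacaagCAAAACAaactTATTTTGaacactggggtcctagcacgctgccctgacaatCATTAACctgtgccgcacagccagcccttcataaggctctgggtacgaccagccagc
Pck1: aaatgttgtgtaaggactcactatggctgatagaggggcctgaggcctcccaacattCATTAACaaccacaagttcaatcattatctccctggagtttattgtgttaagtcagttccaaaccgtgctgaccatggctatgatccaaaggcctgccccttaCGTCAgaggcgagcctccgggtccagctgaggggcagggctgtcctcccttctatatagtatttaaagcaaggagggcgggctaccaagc
G6pc: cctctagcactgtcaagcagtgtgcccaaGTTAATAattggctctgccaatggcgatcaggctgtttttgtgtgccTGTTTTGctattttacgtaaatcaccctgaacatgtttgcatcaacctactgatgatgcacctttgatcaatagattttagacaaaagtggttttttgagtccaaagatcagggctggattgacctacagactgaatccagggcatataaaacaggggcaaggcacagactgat

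Both strands of the 250 bases before the start of each member were searched for 8 short motifs, and bases farther away were not. Matches are descriptions of letters, not of bound factors. The Igfbp1 window held the insulin response core TGTTTTG on the minus strand from base 108 to base 102 before the start and the related core TATTTTG on the plus strand from base 97 to base 91. The first core was in 5.56% and the other in 3.95% of all 32851 promoter windows of the same length. The G6pc window held TGTTTTG from base 174 to base 168, and the Irs2 window, on chromosome 8, held it from base 37 to base 31. In the Pck1 window the cAMP response core TGACG lay on the minus strand from base 90 to base 86, a motif present in 17.8% of windows. Windows of Igfbp1, Pck1 and G6pc each held 1 match to the HNF1 core GTTAATN, present in 6.40% of windows. Those of Irs2 and Ppp1r3c each held 1 E-box, CACGTG, present in 6.02%. The FoxO core TGTTTAC (3.17% of windows), the D-box TTATGTAA (0.819%) and the glucocorticoid receptor core AGAACA (16.1%) were in none of the 5 windows. No pair of the 8 motifs overlapped in them. The name FoxO core stands here for those exact letters only, and their absence does not show that FoxO1 sites are lacking. The insulin response cores of Igfbp1, Irs2 and G6pc were counted under their own name, and FoxO1 binding to them was not tested. Irs2 had the most GC-rich window, at 72.8% with 34 CpG sites, and G6pc the least, at 43.2% with 2, against a median of 52.4% and 6 over all windows. Peaks of open chromatin at these genes were not analysed here, because the peak lists are in mm9 and no gene positions in that build were at hand.

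The values behind the results are of 2 kinds. Each deposited log2 fold change was read as comparing a pair of diets, though no label states this or names the pair. Its standard error (SE) is on the same log2 scale. The deposited statistic, a likelihood ratio over all 3 diets with 2 degrees of freedom, gives the p-value. Taking the squared ratio of fold change to SE off the statistic leaves what the diet outside the deposited pair adds. With 2 libraries per diet and like precision, this rest gives the distance, in log2 units, of that diet from the midpoint of the other pair. The distance has no sign, and which diet it belongs to is not known. The tables hold no levels per library, and the mean normalised count given for a gene was read as that over the 6 libraries of a strain.

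In C57BL/6J, 3.46% of the 19658 transcripts tested were listed at an adjusted p under 0.05, and in A/J 3.39% of 20591. Because members were chosen for having a row, their counts of 4 and 3 of 5 are not read against these shares. G6pc had no row in the C57BL/6J table, and Igfbp1 and Irs2 had none in the A/J table, so that no value can be given for them there and no difference between the strains is shown. The highest adjusted p listed was 0.0496 in C57BL/6J and 0.0498 in A/J.

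Among the genes of insulin response, Igfbp1 set 1 diet far apart from the other pair in C57BL/6J. In the authors' deposited table its mean normalised count was 1236, its statistic 71.9 (DESeq2 adjusted p 2.67e-13), and its log2 fold change 0.37 ± 0.26 (SE), with an interval of 2 SE from -0.14 to 0.88. Of that statistic, 2.96% lay in the deposited pair of diets and 69.8 was left for the remaining diet. The diet outside the pair lay 1.85 ± 0.22 (SE) log2 units from their midpoint, which is 3.60-fold. It differed from the nearer diet of the pair by 1.66 (1.15 to 2.17) and from the farther one by 2.03 (1.52 to 2.54). By this distance Igfbp1 was 13th and by p 11th of 455 named genes, both out of those listed.

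Irs2, the adaptor of the insulin receptor, also set 1 diet apart in C57BL/6J, on an unknown side, with a larger share inside the pair. In the authors' deposited table it had a mean normalised count of 179, a statistic of 39.0 (DESeq2 adjusted p 8.32e-07) and a log2 fold change of 0.79 ± 0.28 (SE), a 1.73-fold ratio with an interval of 1.17 to 2.55. The pair held 20.4% of the statistic. The diet outside it lay 1.35 ± 0.24 (SE) log2 units from the midpoint, and 0.96 (0.40 to 1.52) beyond the nearer diet of the pair. By these values all 3 diets were apart from each other by more than 2 SE for Irs2, while for Igfbp1 the pair was not. The intervals take in the SE of the fold change but no error of the approximation. With the rest scaled by 0.5 the Irs2 distance was 0.956, and the step to the nearer diet shrank with it. Irs2 had the lowest mean count of the members and the widest SE, 1.70 times the median SE of listed genes, and Igfbp1 came next at 1.55 times.

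**Figure D1:**
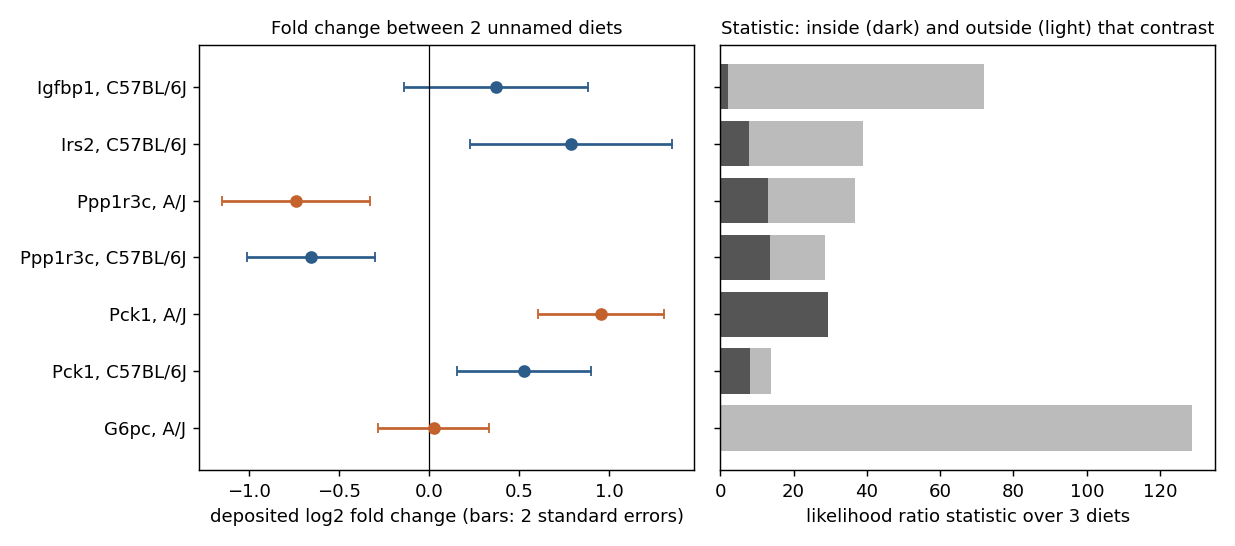
Deposited log2 fold change with bars of 2 SE (left, x axis in log2 units) and the likelihood ratio statistic (right, no unit) for each member and strain, blue for C57BL/6J and orange for A/J. The dark part of each bar is the squared ratio of fold change to SE and the light part is the rest: nearly the whole bar is light for G6pc (statistic 129) and Igfbp1 (71.9), and the whole bar is dark for Pck1 in A/J (29.4).

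Ppp1r3c, which favours glycogen synthesis, was the only member with a negative fold change, and it was negative in both strains. In the authors' deposited table its log2 fold change was -0.65 ± 0.18 (SE) in C57BL/6J and -0.74 ± 0.21 in A/J, ratios of 0.635 and 0.599. The statistic was 28.6 (DESeq2 adjusted p 7.93e-05) in C57BL/6J and 36.6 (DESeq2 adjusted p 1.95e-06) in A/J in the authors' deposited table. The A/J value minus the C57BL/6J value was -0.08 (-0.63 to 0.46), an interval that includes 0, and the comparison holds only if both tables name the same pair of diets, which is not stated. The diet outside the pair lay 0.60 ± 0.15 (SE) log2 units from the midpoint in C57BL/6J and 0.87 ± 0.18 in A/J. It differed from the nearer diet by 0.27 (-0.08 to 0.63) in C57BL/6J and by 0.50 (0.09 to 0.91) in A/J. Only in A/J did that interval leave out 0, and it takes in the SE of the fold change but no error of the approximation. With the rest scaled by 0.5 the A/J distance was 0.61, and the step to the nearer diet shrank with it. The difference between the strains in the distance from the midpoint was 0.27 ± 0.24 (SE), so that the strains were not shown to differ. Mean normalised counts were 2333 in C57BL/6J and 2001 in A/J in the authors' deposited tables. They are not compared, because it is not stated whether both tables were normalised together.

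Pck1 had a positive fold change in both strains and the smallest distances of the members. In the authors' deposited table its log2 fold change was 0.53 ± 0.19 (SE) in C57BL/6J, a 1.44-fold ratio, and 0.95 ± 0.17 in A/J, a 1.94-fold ratio. The statistic was 13.9 (DESeq2 adjusted p 0.0326) in C57BL/6J and 29.4 (DESeq2 adjusted p 5.13e-05) in A/J in the authors' deposited table. For A/J the pair accounted for the whole statistic, with a rest of -0.41, below 0 because the pieces come from different approximations. The diet outside the pair was therefore placed at the midpoint, with 0.30 log2 units as the upper end of 2 SE, inside the 0.48 that separates the midpoint from either diet of the pair. Of the 7 member rows, Pck1 in A/J was the only one whose remaining diet was placed between the other pair. In C57BL/6J the distance was 0.39 ± 0.16 (SE), and the step from the nearer diet was 0.12 (-0.25 to 0.49), so that the position of that diet inside or outside the pair was not resolved. The A/J value minus the C57BL/6J value of the fold change was 0.43 (-0.08 to 0.94), an interval that includes 0. The C57BL/6J call for Pck1, which ranked 381st of 455 genes by p, was lost at an adjusted p threshold of 0.01.

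G6pc had the largest statistic of the members and almost no difference inside the deposited pair. In the authors' deposited A/J table its mean normalised count was 9326, its statistic 129 (DESeq2 adjusted p 1.31e-25) and its log2 fold change 0.03 ± 0.15 (SE), with an interval from -0.28 to 0.33. The pair held 0.0241% of the statistic. The diet outside it lay 1.51 ± 0.13 (SE) log2 units from the midpoint, 2.85-fold, and differed from the nearer diet by 1.50 (1.19 to 1.81) and from the farther by 1.53 (1.22 to 1.83). G6pc and Pck1 encode the last and an early step of the same pathway, and in A/J the diets were placed differently for them. For G6pc 1 diet stood apart from a pair that did not differ by 2 SE, and for Pck1 the remaining diet was placed midway between a pair that differed. By p G6pc ranked 11th of the 482 named A/J genes, and by distance 29th.

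**Figure D2:**
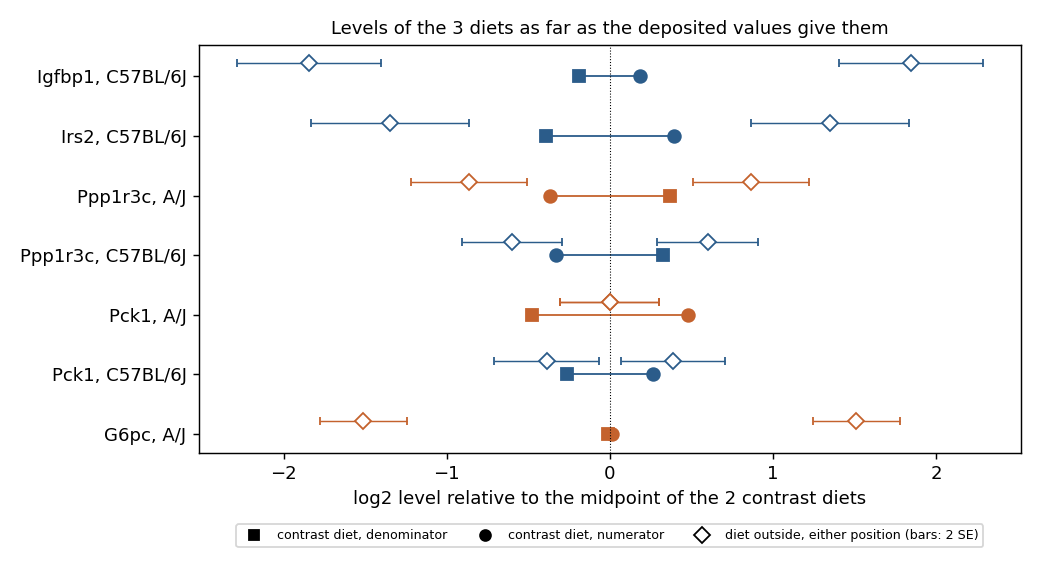
Level of each diet for each member, in log2 units relative to the midpoint of the deposited pair (filled square: denominator of the ratio; filled circle: numerator; blue: C57BL/6J; orange: A/J), with the remaining diet as an open diamond at both positions its unsigned distance allows and bars of 2 SE. The diamonds lie far outside the pair for Igfbp1 (1.85), G6pc (1.51) and Irs2 (1.35), and at the midpoint for Pck1 in A/J.

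Set against all listed genes, members fell on both sides of the middle. The median distance over the named genes was 0.46 log2 units in C57BL/6J and 0.55 in A/J, and 48 of 455 and 84 of 482 genes lay beyond 1 log2 unit. Igfbp1, Irs2 and, in A/J, G6pc lay beyond that bound, Ppp1r3c lay above the median in both strains, and Pck1 below it in both. Under 50% of the statistic lay in the pair for 55.6% of listed C57BL/6J genes and 72.2% of A/J genes, and for 3 of the 4 members in C57BL/6J and 2 of the 3 in A/J, all but Pck1. That most of a difference lay outside the deposited pair was thus common in these tables. In C57BL/6J the order of the members by distance was Igfbp1, Irs2, Ppp1r3c and Pck1. The neighbours Igfbp1 and Irs2 differed by less than 2 SE of their difference, and so did Ppp1r3c and Pck1. In A/J the order was G6pc, Ppp1r3c and Pck1, and both steps exceeded 2 SE of the difference.

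**Figure D3:**
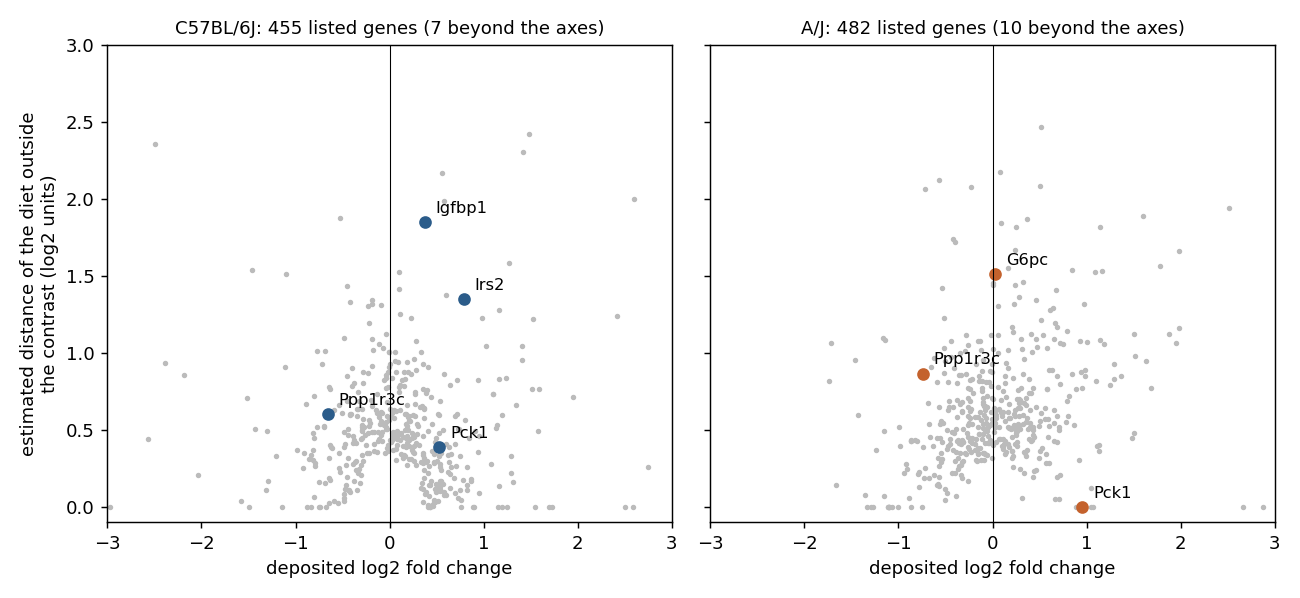
Deposited log2 fold change (x axis) against the estimated distance of the remaining diet (y axis, log2 units) for every named gene in each table, 1 transcript per gene, with members in colour. Igfbp1, Irs2 and G6pc stand in the upper part of the cloud, and Pck1 in A/J lies on the floor at 0.

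The genes nearest to each member in this plane, up to 3 named per member and strain, are those with the most similar fold change and unsigned distance. Since the distance has no sign, the remaining diet of a neighbour may lie on the opposite side. Among those nearest to Igfbp1 in C57BL/6J were Cfd and Fbxo32, at gaps of 0.37 and 0.42 log2 units, and nearest to Irs2 were Efna3, Slc16a5 and Chac1, at 0.19 to 0.38. Cfd, an adipocyte gene, had a mean normalised count of 125 in the authors' deposited table and was the only adipocyte marker of 6 with a row there. Its part in the Igfbp1 result was not tested. Nearest to Ppp1r3c were Cyp51, Gstp1 and Gstp2 in C57BL/6J and Axin2, Il22ra1 and Enho in A/J. Gstp1 and Gstp2 are near copies that can share reads, so that their separate values are uncertain. Nearest to Pck1 were Serpina6, Spns2 and Paox in C57BL/6J, all within 0.05, and Cyp3a16, Acer2 and Cyp3a41a in A/J. Nearest to G6pc in A/J were Dbp, Wee1 and Scd1. Dbp, a transcription factor gene that follows the circadian clock, had, from the authors' deposited table, a statistic of 134 and a fold change of 0.00 ± 0.14 (SE) on the log2 scale, which put its distance at 1.45 against 1.51 for G6pc.

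Beyond the members, 93 genes stood on lists of gluconeogenesis, glycogen, glucose uptake with glycolysis, and insulin and IGF signalling. These lists were chosen with earlier results of these data known. Of the 93, 12 had a row in C57BL/6J (12.9%) and 5 in A/J (5.38%), beside the 3.46% and 3.39% of transcripts listed. The former are shares of genes, tested or not, and the latter of transcripts tested, so that the sizes are not directly comparable. Of the 12, 11 had a positive fold change, 8 of them beyond 2 SE, and none had a negative one beyond 2 SE, where 36.5% of all listed C57BL/6J genes were positive and 24.8% negative beyond 2 SE. Of the 5 in A/J, 2 were positive and 1 negative beyond 2 SE, where 26.6% and 25.3% of all listed genes were. The median log2 fold change of the 12 was 0.72, against 0.12 over all listed C57BL/6J genes, and that of the 5 was 0.08, against 0.01 in A/J.

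In C57BL/6J, all 7 listed genes of the gluconeogenesis list, Pck1 among them, were positive beyond 2 SE, out of 26 on the list, and beyond 3 SE Pck1, Sik1 and Nr4a1 were no longer so. Got1, an aminotransferase, had the largest statistic of the 7, 79.6, and a log2 fold change of 1.17 ± 0.17 (SE), both from the authors' deposited table. Sds, which turns serine to pyruvate, had 1.24 ± 0.38 (SE), and Gpt, the alanine aminotransferase gene, had 0.53 ± 0.13 in the authors' deposited table. Among regulators of gluconeogenic genes, Cebpb had 0.90 ± 0.18 (SE), Sik1 1.41 ± 0.50 and Nr4a1 2.60 ± 0.92 in the authors' deposited table. For Cebpb the remaining diet was placed at the midpoint, as for Pck1 in A/J. The share of the statistic inside the deposited pair ran from 55.8% for Nr4a1 to 100.2% for Cebpb among the 7, with Pck1 at 58.3%.

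Only 2 of the 21 genes of the glycogen list, Ppp1r3c and Ppp1r3g, had a row in C57BL/6J, and they did not share a sign. Ppp1r3g, which encodes another glycogen-targeting subunit of protein phosphatase 1, had a log2 fold change of 1.49 ± 0.42 (SE) in the authors' deposited table, against the negative value of Ppp1r3c. Its distance of 2.42 ± 0.36 (SE) was the fifth largest of all 455 genes, at a mean normalised count of 117. In A/J the glycogen-binding protein gene Stbd1 had 0.84 ± 0.14 (SE) and the liver glycogen synthase gene Gys2 had 0.08 ± 0.11 in the authors' deposited table, and the distances were 0.86 and 0.44.

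Insulin and IGF signalling genes other than the members had smaller distances than Igfbp1 and Irs2. In C57BL/6J, Igfals, whose product is part of a complex that carries IGF1 in blood, had 0.48 ± 0.16 (SE) in the authors' deposited table. Igfbp4 had 0.04 ± 0.11 (SE), Grb7 -0.02 ± 0.12 and Tsc22d3, a glucocorticoid-induced gene, 0.32 ± 0.20 in the authors' deposited table. The distances of these C57BL/6J genes ran from 0.35 to 0.65. In A/J the adaptor gene Irs1, relative of Irs2, had -0.24 ± 0.13 (SE), and Enho, which encodes the secreted peptide adropin, -0.59 ± 0.19 in the authors' deposited table. On the list of glucose uptake and glycolysis, Pdk4, whose product shuts pyruvate off from oxidation, had 0.84 ± 0.27 (SE) in the authors' deposited A/J table and a distance of 1.54, close to the 1.51 of G6pc.

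**Figure D4:**
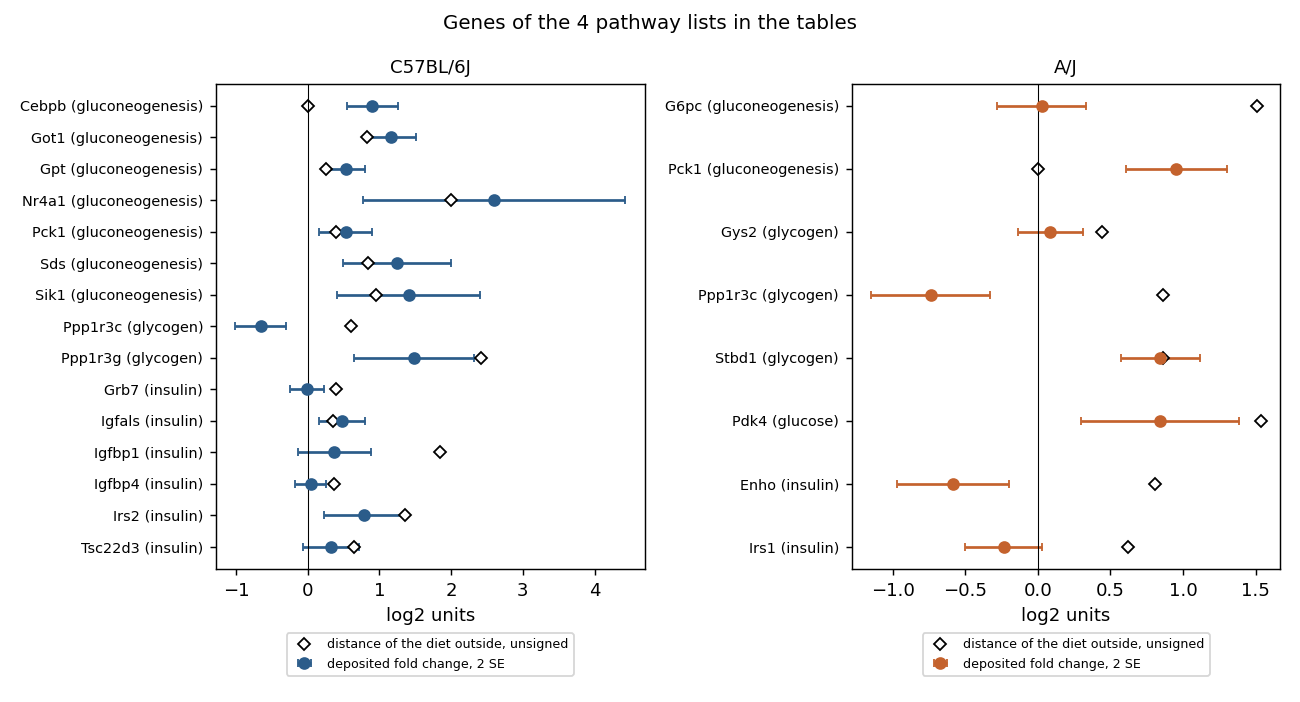
Deposited log2 fold change with bars of 2 SE (filled circles) and unsigned distance of the remaining diet (open diamonds), both in log2 units, for 15 of the 16 C57BL/6J genes and all 8 A/J genes of the pathway lists with a row. The gluconeogenesis genes of C57BL/6J all lie to the right of 0, and Ppp1r3c lies to the left of 0 in both panels, whose x axes differ.

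Of 10 hepatocyte markers, 9 had a symbol found in RefSeq, and 5 had a row in C57BL/6J and 2 in A/J. Mean normalised counts ran from 14347 for Hnf4a to 212557 for Cyp2e1 in the authors' deposited C57BL/6J table. The tables list changed transcripts only, so that the tissue label cannot be checked further from them. In bulk liver, fewer cells of a type and less RNA per cell cannot be told apart. Among markers of other cells, C57BL/6J listed 1 of 6 adipocyte genes and none of 10 macrophage genes. It listed none of 10 lymphocyte genes, of which 9 had a symbol found in RefSeq. None of 8 endothelial, 9 stellate, 7 cholangiocyte, 9 pancreas and 5 erythroid genes was listed there. A/J listed 2 of the macrophage genes (Cd5l and Marco), 1 pancreas gene (Cela1), 1 erythroid gene (Alas2) and none of the others. Their part in the member results was not tested.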

How the data were processed

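Bowtie2, TopHat, DESeq2 and the build mm9 appear in the submitters' processing notes without version or role. That the authors made the expression tables with DESeq2 was read from these notes and the style of the column names, none of which names the tool. The deposited mean level of a transcript is a signal averaged over libraries after the authors' normalization of counts. The deposited fold change and its SE are log2 values, read here as those of an unnamed pair of diets. The deposited score behaves as a likelihood ratio statistic over the 3 diets: its chi-square tail with 2 degrees of freedom gives every deposited p-value. How many transcripts were tested follows from the rank of each p-value and its adjusted value. The sources used here give no sequencing depth of any library.

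Symbols came from a RefSeq table of GRCm38.p6, used for names only, which matched 675 of 681 and 690 of 699 transcripts. A gene was represented by its transcript with the smallest p. The distance of the remaining diet was the SE times the square root of 0.75 times the rest, set to 0 where the rest was negative (24 C57BL/6J and 21 A/J genes). Its SE was the SE of the fold change times the square root of 0.75, and steps to either diet of the pair took the SE of the fold change. The distance was tried on simulated counts, and the outcome is not reported here. Calculations used Python 3.11.15, pandas 2.3.3 and scipy 1.17.1.

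The design had planned a refit if values per library were present, and in its place the deposited test was used. Members and lists were chosen with earlier results of these data known. Named genes are the members, every pathway gene with a row and the 3 genes nearest to each member, of which some are not reported here. Alternatives were other thresholds, other transcripts and a scaled rest.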

Additional observations from a re-analysis of the deposited data

How the results depend on the processing

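No paired analysis was possible because the tables hold no values per library, and leaving out each replicate was not run for the same reason. At an adjusted p threshold of 0.01 the tables held 372 C57BL/6J and 447 A/J transcripts, and with Bonferroni adjustment 185 and 223. Among transcripts at or above the median mean level they held 341 and 350, by construction, and 2 of the 4 C57BL/6J members, since Igfbp1 and Irs2 lie below that level. Under the threshold of 0.01 and under Bonferroni adjustment 3 of 4 members were left in C57BL/6J, all but Pck1, and 3 of 3 in A/J. Matching older symbols added none. Of the pathway genes in C57BL/6J, 11 had a fold change beyond 2 SE and 7 beyond 3 SE, where Irs2, Pck1, Sik1 and Nr4a1 were lost, while in A/J both counts were 5. With the rest scaled by 2, the median distance over listed genes was 0.649 in C57BL/6J and 0.779 in A/J, by construction. Scaling by 0.5 put Igfbp1 at 1.31, Irs2 at 0.956, G6pc at 1.07 and Ppp1r3c at 0.424 (C57BL/6J) and 0.612 (A/J) log2 units. No sign changed, since the deposited fold changes enter every alternative as they are. Groups of 2 libraries and the unnamed pair of diets limit what can be read from every value.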

Other observations

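Among the hepatocyte markers, a pair of urea cycle genes had fold changes of opposite sign in the strains. Ass1, which encodes argininosuccinate synthase, had a log2 fold change of 0.72 ± 0.13 (SE) in C57BL/6J and -0.40 ± 0.15 in A/J in the authors' deposited tables. In A/J Ass1 ranked 471st of 482 genes by p (DESeq2 adjusted p 0.0454 in the authors' deposited table). Cps1, which encodes the enzyme that starts the cycle, had 0.30 ± 0.11 (SE) in C57BL/6J and -0.23 ± 0.10 in A/J in the authors' deposited tables. Of the Cps1 statistic only 18.6% lay in the pair in C57BL/6J and 8.67% in A/J. For Cps1 the diet outside the pair lay 0.54 log2 units from the midpoint in C57BL/6J and 0.63 in A/J. Pck1 and Ppp1r3c had the same sign in both strains. No test of the strain difference was run, and it rests on both tables naming the same pair of diets.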
